A study of Homo sapiens with 9 samples.

Results

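RNA levels of 10 regulators of alternative splicing were followed in human naive pluripotent stem cells on day 5 of their passage towards a primed-like state. The genes are the muscleblind-like proteins MBNL1, MBNL2 and MBNL3, the RBFOX protein RBFOX2, the epithelial splicing regulatory proteins ESRP1 and ESRP2, the CELF proteins CELF1 and CELF2, and the polypyrimidine tract binding proteins PTBP1 and PTBP2. They are 10 of the 56312 rows of the count table, taken by gene symbol, and each symbol has 1 row. MBNL2 was chosen by its lower level under UNC1999 than under vehicle, so its values are given as a description with no test. The other 9 were added as members of the families that govern developmental splicing, with results of these data already known.

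All 9 libraries are from wild-type HNES1, an established naive line derived from a human embryo and therefore 1 genetic background. The cells had been kept naive in PXGL medium (N2B27 with PD0325901, LIF, Gö6983 and XAV939) on mouse feeder cells and were plated on Geltrex. They met the compounds 24 hours after plating and, a day later, were moved to N2B27 with XAV939, with the compound renewed every day until harvest on day 5. The group UNC received UNC1999 at 1 µM, a catalytic inhibitor of EZH1 and EZH2, the methyltransferases of Polycomb repressive complex 2. The group PROTAC received UNC6852 at 2.5 µM, a degrader of the EED subunit of that complex, and the group DMSO received the solvent alone. Each group has 3 libraries, numbered 1 to 3, and the series states that the work was carried out independently 3 times. Library totals ran from 31651742 counts in PROTAC number 3 to 101081643 in UNC number 1. Set against the label of a pluripotent line, the 9 general pluripotency genes matched in the table summed to between 6236 and 7124 CPM in every library, where CPM are counts per 1000000 counts of the library.

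An exon is kept or skipped according to which proteins bind within it and in the introns beside it. MBNL proteins bind YGCY elements, and their rise during differentiation moves many exons towards the pattern of adult tissue, while CELF1 opposes them at a set of shared exons in heart and muscle. MBNL proteins are also known to hold back exon choices typical of pluripotent cells, among them one in FOXP1. ESRP1 and ESRP2 maintain epithelial exons, RBFOX2 binds UGCAUG and acts in both epithelial and mesenchymal cells, and PTBP1 represses neural exons until PTBP2 replaces it in neurons.

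Polycomb repressive complex 2 in mammals is found mainly at promoters rich in CpG dinucleotides. The promoter sequence is therefore shown for the 2 genes that moved most, MBNL2 and MBNL1, as the 250 bases ahead of annotated RefSeq starts on GRCh38.p14, plus strand, with every CG in capitals. The first MBNL2 start lies ahead of the gene's start in the count table, at position 97221434 of chromosome 13, and the second lies inside the gene. The MBNL1 windows lie inside MBNL1, which starts at position 152243828 of chromosome 3 in the count table. Counts per gene do not show which start these cells use. Windows were found for 7 of the 10 genes.
MBNL2 chr13:97141584-97141833: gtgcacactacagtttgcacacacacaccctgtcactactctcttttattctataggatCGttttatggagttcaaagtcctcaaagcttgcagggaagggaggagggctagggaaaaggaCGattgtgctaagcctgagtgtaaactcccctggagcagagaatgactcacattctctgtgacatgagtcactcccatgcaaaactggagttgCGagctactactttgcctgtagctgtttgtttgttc
MBNL2 chr13:97222083-97222332: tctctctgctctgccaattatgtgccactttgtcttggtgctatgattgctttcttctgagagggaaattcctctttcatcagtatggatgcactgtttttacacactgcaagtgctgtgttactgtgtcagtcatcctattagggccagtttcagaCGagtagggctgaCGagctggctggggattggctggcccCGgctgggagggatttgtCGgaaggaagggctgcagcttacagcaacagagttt
MBNL1 chr3:152268679-152268928: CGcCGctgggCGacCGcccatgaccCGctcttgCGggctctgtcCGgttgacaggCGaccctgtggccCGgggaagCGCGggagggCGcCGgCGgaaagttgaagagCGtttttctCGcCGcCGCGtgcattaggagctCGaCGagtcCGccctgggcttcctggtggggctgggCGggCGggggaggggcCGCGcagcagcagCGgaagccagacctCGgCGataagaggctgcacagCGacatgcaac
The MBNL2 windows hold 3 and 4 CG, against a median of 11 over 35116 windows of this length, and 77.1% and 70.7% of all windows hold at least as many. The MBNL1 window holds 30, a number reached by 12.4% of windows. It has 3 non-overlapping copies of GGGCGG, counted on both strands, where 42.6% of all windows have at least 1. Of the other MBNL1 windows, one overlaps it and holds 12, and one lies downstream and holds 4. The most CG in a window was 38 for CELF1, 44 for CELF2, 50 for PTBP1, 14 for MBNL3 and 11 for PTBP2. None of these genes was called in any comparison, so a high count is not particular to a gene that moved. At least 1 CG is present in 93.9% of windows. These counts describe letters only: no chromatin mark was measured in this experiment.

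The table gives counts per gene. They are reported below as CPM after TMM scaling and, to set genes beside each other, as CPM per kilobase of annotated exon. In the DMSO libraries the order by CPM per kilobase was PTBP1 (80.6), ESRP1 (54.0), CELF1 (30.9), RBFOX2 (12.2), ESRP2 (10.3), PTBP2 (3.96), CELF2 (1.495), MBNL3 (0.351), MBNL1 (0.338) and MBNL2 (0.211), each a mean of 3 libraries. The antagonists of neural and muscle exons, PTBP1 and CELF1, and the epithelial factor ESRP1 thus stood above all 3 MBNL genes in every library. MBNL3 and MBNL1 did not differ beyond their spread, with ranges of 0.298 to 0.417 and 0.305 to 0.401. MBNL2, at 0.149 to 0.271, lay below both. In the UNC libraries MBNL1 ranged from 0.465 to 0.575 and MBNL3 from 0.286 to 0.439, so MBNL1 stood above MBNL3 there, and MBNL2 lay between 0.0570 and 0.0779.

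**Figure D1:**
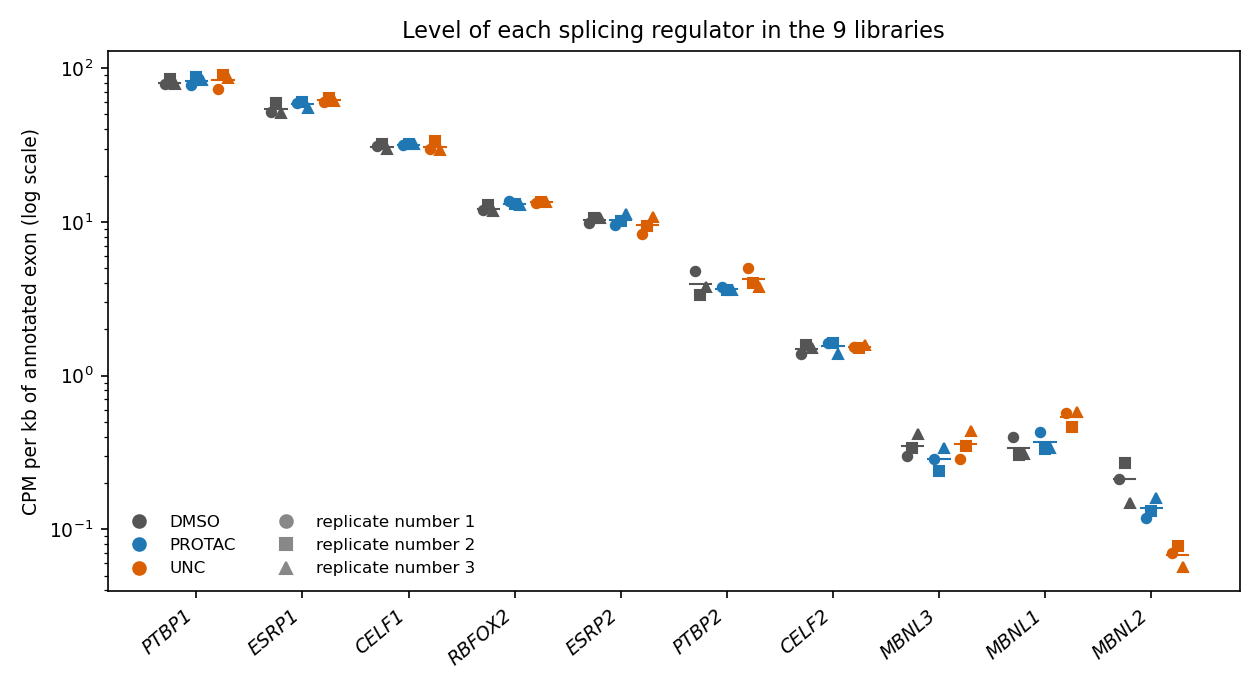
CPM per kilobase of annotated exon on a log axis for the 10 genes, ordered by their DMSO mean. Each symbol is 1 library, its shape the replicate number, and short bars are group means (n = 3). MBNL2 is the lowest gene in each group, and its UNC libraries (0.0570 to 0.0779) lie below its DMSO libraries (0.149 to 0.271).

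Differences between groups were tested with edgeR over all 24187 genes that passed the filter on low counts, and all 10 regulators passed. A gene is called where the Benjamini-Hochberg adjusted p over all those genes is under 0.05. Differences are log2 fold changes with their standard error (SE). Each was fitted by group alone, the main fit, and in a paired fit with the replicate number as a block, since deviations from the group means were positively correlated in all 9 pairs of libraries that share a number (0.106 to 0.472). The paired value is given where it changes a call. Nothing in the labels says that a number marks 1 experiment.

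MBNL2 (ENSG00000139793, chromosome 13, 97221434 to 97394120, plus strand), best known from brain and from myotonic dystrophy, had 69, 112 and 31 counts in DMSO numbers 1, 2 and 3. It had 55, 46 and 25 counts in PROTAC and 36, 15 and 22 in UNC. Scaled to depth, the DMSO libraries stood at 1.05, 1.33 and 0.731 CPM, the PROTAC libraries at 0.581, 0.644 and 0.789, and the UNC libraries at 0.346, 0.382 and 0.280. All 3 UNC libraries were thus below every DMSO and every PROTAC library, while PROTAC number 3 lay above DMSO number 3. Group means over 3 libraries were 1.04 ± 0.300 CPM (SD) for DMSO, 0.671 ± 0.106 for PROTAC and 0.336 ± 0.0521 for UNC. The log2 difference of UNC from DMSO was -1.65 (SE 0.297), which is 0.318 of the DMSO level, and that of PROTAC from DMSO was -0.67 (SE 0.283). With counts this low the counting error is wide: the exact 95% Poisson interval of UNC number 2 runs from 0.214 to 0.631 CPM and that of DMSO number 3 from 0.496 to 1.04 CPM, so these 2 libraries overlap. Such intervals cover counting error only. Within a replicate number, UNC was below DMSO by 1.52, 1.72 and 1.30 on the log2 scale, while PROTAC was above DMSO in number 3. In bulk RNA, fewer cells that express a gene and less of its RNA per cell cannot be told apart.

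MBNL1 (ENSG00000152601, chromosome 3, 152243828 to 152465780, plus strand), the most widely expressed muscleblind protein of adult tissue, moved the other way. DMSO numbers 1 to 3 had 4.004, 3.04 and 3.09 CPM, PROTAC 4.31, 3.32 and 3.38, and UNC 5.72, 4.64 and 5.75. Every UNC library was above every library of the other groups, and number 2 was the lowest of its group in each. The 3 DMSO libraries averaged 3.38 ± 0.543 CPM (SD), the PROTAC libraries 3.67 ± 0.559 and the UNC libraries 5.37 ± 0.630. UNC exceeded DMSO by 0.67 (SE 0.168), 1.59 times, with the same sign in 3 of 3 replicate numbers. By group alone edgeR did not call it (adjusted p = 0.0933). In the paired fit the difference was again 0.67 (SE 0.122) and was called (adjusted p = 0.000154), as it was when any 1 library or number was left out of that fit (adjusted p from 0.000156 to 0.0158). The group-alone adjusted p ranged from 0.00537 with DESeq2 to 0.755 when number 3 was left out. PROTAC differed from DMSO by 0.13 (95% interval -0.24 to 0.49), which was not called in either fit.

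MBNL3 (ENSG00000076770, chromosome X, 132369320 to 132489968, minus strand), the member most restricted to early development and regenerating muscle, had 3.64, 4.10 and 5.09 CPM under DMSO, 3.49, 2.91 and 4.13 under PROTAC and 3.48, 4.23 and 5.35 under UNC. Its groups overlapped, and number 3 was the highest library of each group. The UNC difference was 0.03 (95% interval -0.39 to 0.45) and the PROTAC difference -0.29 (-0.72 to 0.14), neither called in either fit. RAP2C-AS1, an antisense entry that overlaps MBNL3, held 753 counts over the 9 libraries against 2419 for MBNL3. Whether the authors counted by strand is not given in the sources used here, so reads of the overlap cannot be assigned. MBNL2 overlaps only entries with 0 counts and MBNL1-AS1 held 21.

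**Figure D2:**
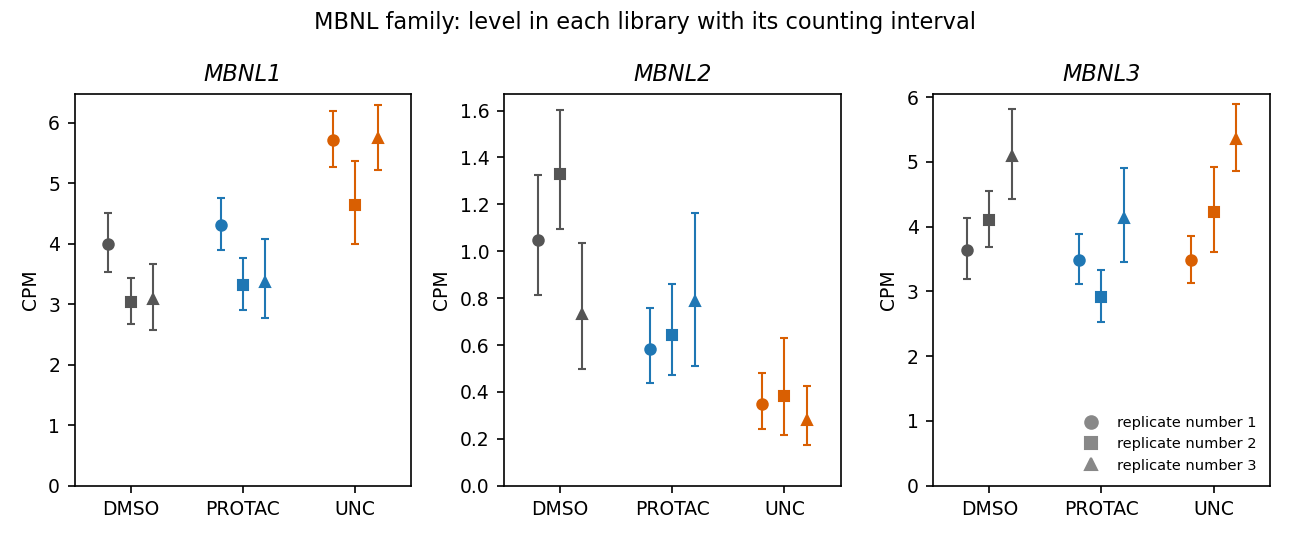
CPM of MBNL1, MBNL2 and MBNL3 in each library, on axes that start at 0 and differ between panels. Bars are exact 95% Poisson intervals and cover counting error only, and shapes give the replicate number. The UNC libraries are the highest for MBNL1 (4.64 to 5.75 CPM) and the lowest for MBNL2 (0.280 to 0.382 CPM), and the MBNL3 groups overlap.

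The make-up of the MBNL counts shifted between groups. The 3 genes together came to 8.69 ± 0.218 CPM for DMSO, 7.85 ± 0.850 for PROTAC and 10.1 ± 1.15 for UNC (SD over 3 libraries). MBNL2 supplied 12.04%, 15.7% and 8.20% of MBNL counts in DMSO, 6.94%, 9.37% and 9.51% in PROTAC and 3.63%, 4.13% and 2.46% in UNC. MBNL1 supplied 34.7% to 46.1% in DMSO, 40.7% to 51.5% in PROTAC and 50.1% to 59.9% in UNC. The log2 ratio of MBNL2 to MBNL1 counts, in which scaling cancels, averaged -1.74 ± 0.476 in DMSO, -2.45 ± 0.404 in PROTAC and -4.002 ± 0.382 in UNC. The 3 groups of ratios did not overlap, which is a description since MBNL2 is part of the ratio. PROTAC and DMSO nearly touched, at -2.098 in PROTAC number 3 and -2.079 in DMSO number 3. Those libraries held 25 and 31 MBNL2 counts, so the gap is small beside counting error. Leaving out any 1 library kept the UNC ratio between 1.99 and 2.47 below that of DMSO on the log2 scale.

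ESRP1, which keeps epithelial exons in genes such as FGFR2 and CD44, had 252, 290 and 247 CPM in DMSO, 288, 294 and 269 in PROTAC and 295, 310 and 298 in UNC. The UNC libraries lay above all others, the nearest being PROTAC number 2 at 294 CPM. The means were 263 ± 23.4, 284 ± 12.9 and 301 ± 7.75 CPM (SD, n = 3) in that order of groups. The difference of UNC from DMSO was 0.19 (SE 0.0748), 1.14 times, and was not called by group alone (adjusted p = 0.293). In the paired fit it was 0.20 (SE 0.0510) and was called (adjusted p = 0.00680). That call was lost without DMSO number 1 (adjusted p = 0.0586), DMSO number 3 (0.0887), UNC number 3 (0.0721) or all of number 3 (0.122). The PROTAC difference of 0.11 (95% interval -0.05 to 0.27) was not called in either fit.

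ESRP2, its paralogue with overlapping targets, had 54.4, 58.7 and 59.0 CPM in DMSO, 53.4, 56.3 and 62.5 in PROTAC and 46.7, 52.6 and 59.7 in UNC. Number 1 was its lowest and number 3 its highest library in each group, and the groups overlapped. UNC differed from DMSO by -0.11 (95% interval -0.32 to 0.09), not called in either fit. The log2 ratio of ESRP2 to ESRP1 was -2.19 ± 0.120 for DMSO, -2.31 ± 0.174 for PROTAC and -2.51 ± 0.176 for UNC (SD over 3 libraries). The UNC and DMSO ratios did not overlap, which gives p = 0.1 in a two-sided exact permutation test, the smallest value that 3 against 3 allows, and 0.764 after Benjamini-Hochberg adjustment over 12 such tests. NFATC3 on the opposite strand held 43172 counts over the 9 libraries and shares the 3′ end of ESRP2, which held 33702, so the ESRP2 level is uncertain without a stated strand setting.

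RBFOX2, the main RBFOX protein of pluripotent cells, had 119, 129 and 118 CPM in DMSO, 137, 130 and 128 in PROTAC and 134 in each UNC library. The UNC libraries were all above DMSO, and the difference of 0.14 (SE 0.0631) was not called by group alone (adjusted p = 0.408) or in the paired fit (adjusted p = 0.0695). The PROTAC difference was 0.11 (-0.03 to 0.25) and the groups overlapped. Across the 9 libraries log2 CPM of RBFOX2 and ESRP1 had a Pearson correlation of 0.909, the highest of the 45 pairs of regulators, and MBNL1 and MBNL2 one of -0.844, the lowest. The 9 libraries share groups and replicate numbers, so the correlations are a description.

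CELF1, which opposes MBNL proteins at many exons, stayed between 306 and 349 CPM in all 9 libraries. Its mean over 3 libraries was 323 ± 11.8 CPM (SD) for DMSO, 333 ± 2.95 for PROTAC and 323 ± 23.1 for UNC, and the UNC difference was -0.003 (95% interval -0.15 to 0.15). CELF2, more typical of heart, brain and lymphocytes, ranged from 15.2 to 18.0 CPM over the libraries, with a UNC difference of 0.05 (-0.16 to 0.25) and a PROTAC difference of 0.06 (-0.15 to 0.26). The log2 ratio of CELF2 to CELF1 was -4.30 ± 0.102 in DMSO, -4.29 ± 0.141 in PROTAC and -4.25 ± 0.128 in UNC, with overlapping groups. Neither gene was called in any comparison. NDUFS3 and PTPMT1 overlap the 5′ end of CELF1 on the opposite strand. They held 32511 and 9136 counts over the 9 libraries against 198670 for CELF1. Reads of the overlap cannot be assigned without a stated strand setting.

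PTBP1, the repressor of neural exons outside the nervous system, ranged from 504 to 618 CPM. In every group number 1 was its lowest library and number 2 its highest. UNC differed from DMSO by 0.05 (95% interval -0.14 to 0.23) and PROTAC by 0.04 (-0.15 to 0.22). PTBP2, its neuronal paralogue whose mRNA PTBP1 destabilizes by exon skipping, had 61.6, 43.3 and 48.9 CPM in DMSO, 48.8, 46.5 and 46.9 in PROTAC and 64.7, 52.0 and 48.7 in UNC. Number 1 was its highest library in each group and the groups overlapped. The UNC difference was 0.11 (-0.17 to 0.38), the PROTAC difference -0.11 (-0.39 to 0.16), and neither gene was called in any comparison. The log2 ratio of PTBP2 to PTBP1 averaged -3.45 ± 0.312 in DMSO, -3.58 ± 0.121 in PROTAC and -3.38 ± 0.365 in UNC, with overlapping groups.

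**Figure D3:**
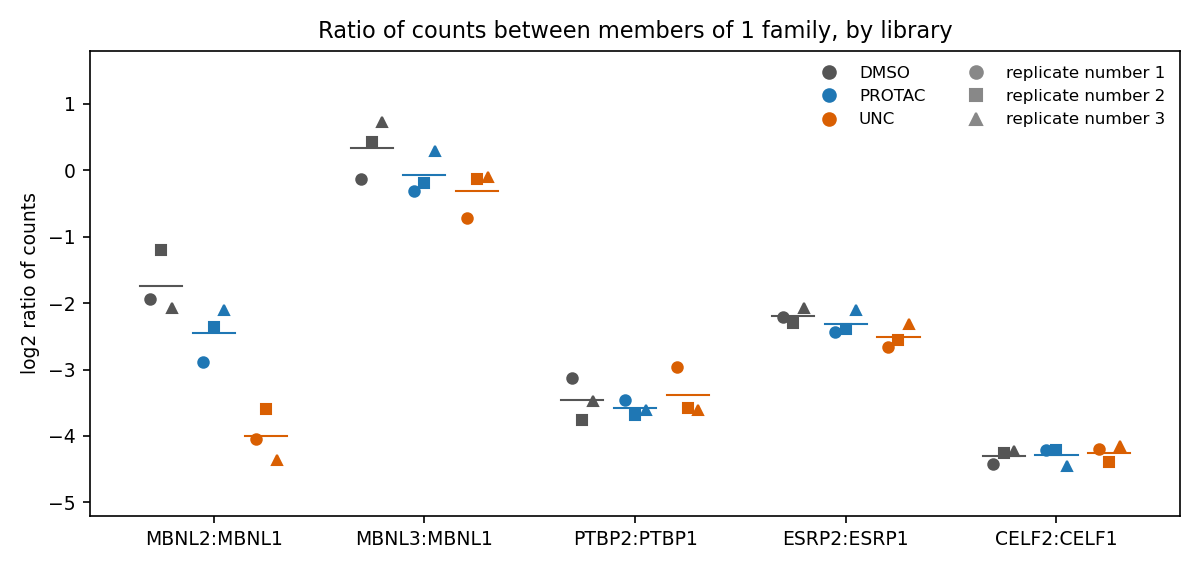
Log2 ratio of counts between 2 genes of 1 family in each library, with colours for groups, shapes for replicate numbers and bars for group means (n = 3). The MBNL2:MBNL1 groups do not overlap, with means of -1.74, -2.45 and -4.002, but DMSO number 3 (-2.079) and PROTAC number 3 (-2.098) nearly touch. Of the other 4 ratios, ESRP2:ESRP1 separates UNC (-2.51) from DMSO (-2.19).

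Counted against all genes, UNC against DMSO gave 174 calls by group alone, 77 higher and 97 lower, or 0.719% of genes tested. With library size alone as scaling 41 were higher and 81 lower. MBNL2, which had been chosen by this contrast, was among them, and edgeR called none of the 9 other regulators. The paired fit called 13.5% of all genes (1703 higher and 1562 lower, or 1165 and 1917 by library size alone) and 2 of those 9, MBNL1 and ESRP1, both upward. The UNC and DMSO libraries did not overlap in 3 of the 9 (MBNL1, RBFOX2 and ESRP1), beside 17.4% of all genes. The median log2 difference of the 10 was 0.05 by group alone, beside a median of -0.01 over all genes.

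In PROTAC against DMSO edgeR called 0% of genes by group alone, with 1200 genes at an unadjusted p under 0.05. The paired fit called 2.99% of all genes (486 higher and 238 lower, or 273 and 265 by library size alone), DESeq2 called 21 genes, and no regulator was called by any of the 3. No regulator was separated between the 2 groups, beside 11.5% of all genes. Both contrasts with DMSO use the same DMSO libraries. For MBNL1 the values side by side were 0.67 for UNC and 0.13 for PROTAC, for MBNL2 -1.65 and -0.67, for ESRP1 0.19 and 0.11, for RBFOX2 0.14 and 0.11, and for MBNL3 0.03 and -0.29.

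PROTAC was also set against UNC directly, although the compounds were given at different concentrations. By group alone 0.00827% of genes were called, 2 in number, neither a regulator. MBNL1 was lower in PROTAC by 0.55 (log2 difference -0.55, SE 0.168), not called by group alone (adjusted p = 0.548). In the paired fit, which called 2.91% of all genes, the MBNL1 difference was -0.54 (SE 0.122) and was called (adjusted p = 0.00543). It lost that call without PROTAC number 3 (adjusted p = 0.0538), UNC number 3 (0.135), all of number 2 (0.0788) or all of number 3 (0.164). MBNL2 stood 0.99 (SE 0.306) higher in PROTAC than in UNC, again a description since the UNC libraries chose it. Of the 9 other regulators, MBNL1 and ESRP1 had ranges that did not overlap between the 2 groups, beside 9.09% of all genes. The ESRP1 difference was -0.09 (95% interval -0.25 to 0.08), the MBNL3 difference -0.32 (-0.75 to 0.10) and the PTBP2 difference -0.22 (-0.49 to 0.06; adjusted p = 0.0983 in the paired fit), none called.

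**Figure D4:**
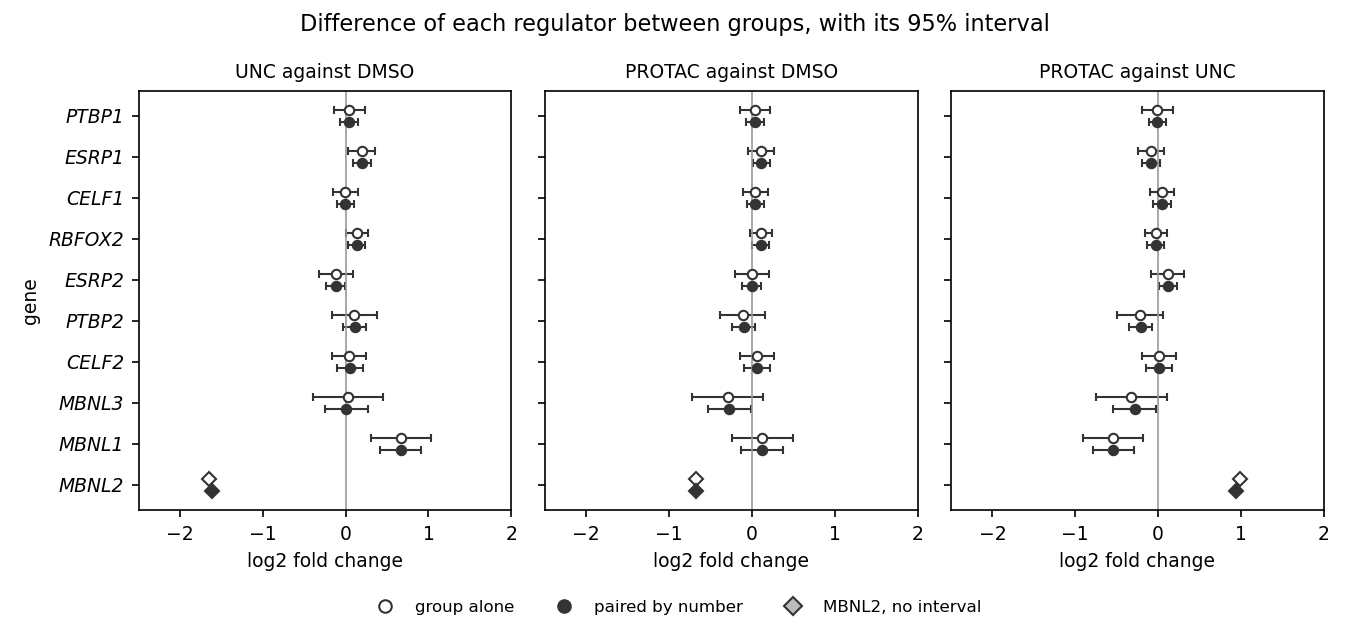
Log2 fold change of each regulator in the 3 comparisons, from the fit by group alone (open) and paired by replicate number (filled), with 95% intervals. MBNL2, drawn as diamonds without an interval because it was chosen by its UNC difference, lies at -1.65, -0.67 and 0.99. MBNL1 is the other gene beyond 0.5 in a comparison (0.67 for UNC against DMSO).

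The remaining splicing factors were grouped in lists by family. The relatives of the 10 (RBFOX1, RBFOX3, CELF3 to CELF6 and PTBP3) gave no call among 7 tested in any comparison or fit. The share of all genes called ran from 0% to 13.5% over those fits, and 7 genes are too few to show a departure from it. Of 28 other tissue-specific or developmental regulators, 27 were tested and A1CF had 0 counts. By group alone none was called in UNC against DMSO, beside 0.719% of all genes. In the paired fit 4 rose and 2 fell, beside 13.5% of all genes called. RBMS3, a single-stranded RNA binding protein, went from 1.62 ± 0.304 to 2.73 ± 0.194 CPM (log2 difference 0.75, SE 0.162, adjusted p = 0.00119). NOVA1, a neuronal splicing regulator, went from 2.43 ± 0.567 to 3.62 ± 0.839 CPM (0.58, SE 0.142, adjusted p = 0.00430). RBM20, which sets titin exons in heart, went from 5.26 ± 0.522 to 3.90 ± 0.269 CPM (-0.44, SE 0.117, adjusted p = 0.00836). MSI1, an RNA binding protein of neural stem cells, went from 10.5 ± 1.40 to 7.79 ± 0.939 CPM (-0.43, SE 0.0890, adjusted p = 0.000749). QKI (0.29) and MATR3 (0.17), which were not among the 4 largest changes, also rose. The NOVA1 call was lost without UNC number 1 (adjusted p = 0.0931), and the RBM20 call without DMSO number 1 (0.0805) or UNC number 1 (0.108). With whole numbers also left out, RBM20 lost its call in 4 of 9 leave-outs (up to 0.111). In PROTAC against DMSO the paired fit called 1 of the 27, beside 2.99% of all genes. It was the neuronal ELAVL3, which rose by 0.37 (SE 0.0698, adjusted p = 0.00137, or 0.0685 without all of number 2). MSI1 was 0.56 higher in PROTAC than in UNC (SE 0.0889, adjusted p = 6.72e-05 in the paired fit).

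General splicing factors were set beside the share of all genes called in UNC against DMSO. That share was 13.5% in the paired fit and 0.719% by group alone. At either share, lists of 14, 24 and 40 genes are too short to show whether their calls were few or many. Of 14 SR proteins, activators that bind exonic enhancers, SRSF8 alone was called in UNC against DMSO, at 39.0 ± 1.202 CPM in UNC against 51.1 ± 3.95 in DMSO (log2 difference -0.39, SE 0.0806, adjusted p = 0.0481 by group alone). Its group-alone call was lost without scaling of library size (adjusted p = 0.0677), with limma-voom (0.0602) and without any 1 library other than UNC number 1 (0.0886 to 0.198), and it held in the paired fit (adjusted p = 7.25e-06). Of 18 alternatives to the group-alone fit, among them the paired fit and whole numbers left out, 6 called SRSF8 (adjusted p up to 0.647). SRSF8 was 0.45 higher in PROTAC than in UNC (SE 0.0581, adjusted p = 1.88e-06 in the paired fit). Of 24 hnRNP proteins, 2 rose in the paired fit, HNRNPLL by 0.25 (SE 0.0601) and HNRNPF by 0.15 (SE 0.0522), and the fit by group alone called none. The list's median was 0.06. Of 40 core spliceosome genes, SF3B1 rose by 0.16 and SF1 fell by 0.16 in the paired fit, again with none called by group alone, and the median was 0.01. HNRNPF and SF3B1 lost their paired calls under library-size scaling (adjusted p = 0.0967 and 0.0732), and neither was called with upper-quartile scaling. The HNRNPF call was lost whichever library was left out (up to 0.258). The SF3B1 call was lost without any 1 of DMSO number 2 or 3 or the UNC libraries (up to 0.264). The SF1 call was lost without DMSO number 2 or 3 or UNC number 1 or 2 (0.140 to 0.183), and that of HNRNPLL without DMSO number 3 (0.0845) or UNC number 2 (0.0592). Over 9 leave-outs of 1 library or 1 whole number, the call was lost in 9 for HNRNPF, 7 for SF3B1, 6 for SF1 and 3 for HNRNPLL. The largest adjusted p was 0.275, 0.365, 0.243 and 0.151 in that order.

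**Figure D5:**
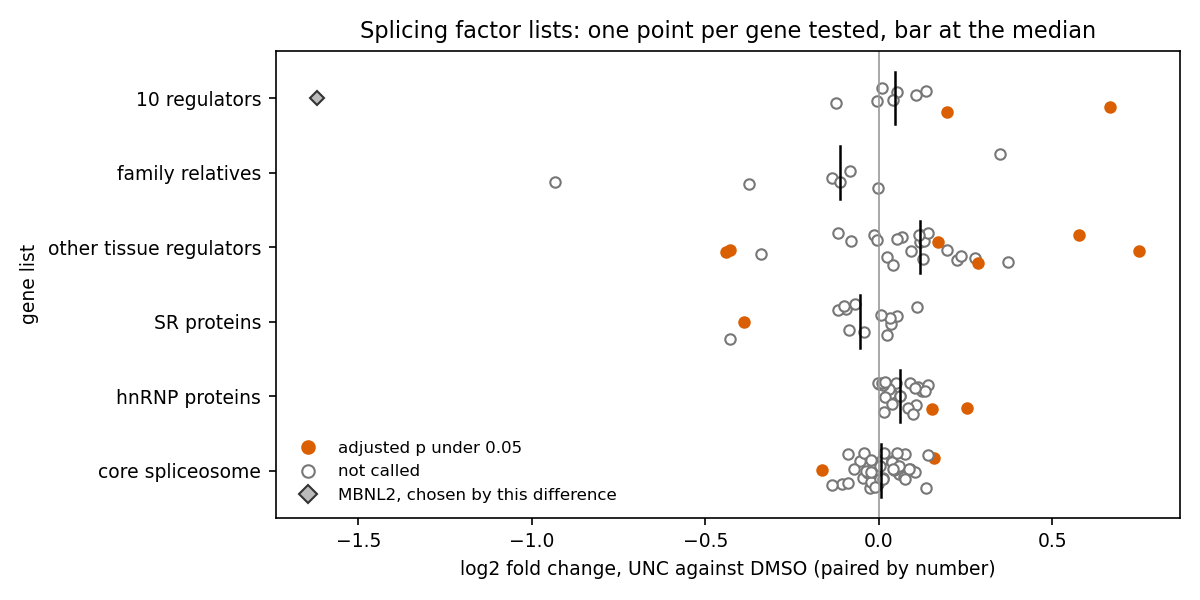
Log2 fold change of UNC against DMSO in the paired fit for each gene tested in 6 lists of splicing factors. Points are genes, spread vertically for legibility, filled where the adjusted p is under 0.05, and black bars are list medians. MBNL2 (diamond) was chosen by this difference. MBNL1 lies at 0.67, RBMS3 at 0.75 and NOVA1 at 0.58, and the core spliceosome median is 0.01. In UNC MBNL1, RBMS3 and NOVA1 averaged 5.37, 2.73 and 3.62 CPM. The lowest core spliceosome gene, U2AF1, averaged 15.1 CPM there, so the distances are between genes of unlike level.

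ESRP1 and ESRP2 are tied to epithelial identity, so state markers were measured beside them. Of 12 epithelial genes none rose and 3 fell in UNC in the paired fit, which called 13.5% of all genes. KRT8 fell by 0.36 (SE 0.0541), GRHL2 by 0.49 (SE 0.171) and KRT18 by 0.18 (SE 0.0538), with none of the 12 called by group alone. The median of the 12 was -0.03, and 6 of them lay above 0. CDH1 (0.12), EPCAM (0.14) and CLDN6 (0.11) were above DMSO in 3 of 3 numbers, and none of these differences was called. Of 10 mesenchymal genes 6 were tested, and 3 rose and 2 fell, among them TWIST1 at 0.83 (SE 0.152) and CDH2 at -0.98 (SE 0.315), again with none called by group alone. ZEB1 and ZEB2, repressors of epithelial genes, had at most 7 and 13 counts in a library and were not tested. GRHL2 and CDH2 lost their calls without DMSO number 2 or 3 or any 1 UNC library (adjusted p 0.0538 to 0.452 and 0.0795 to 0.219), and KRT18 without DMSO number 3 (0.328), UNC number 1 (0.132) or UNC number 3 (0.124). With whole numbers also left out, GRHL2, CDH2 and KRT18 lost their calls in 8, 7 and 5 of 9 leave-outs (CDH2 up to 0.344).

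Several marker lists had calls that were lower in UNC, the group in which MBNL2 was lowest, and others had calls in both directions. The general pluripotency list had calls only higher in UNC. The shares of all genes called in UNC against DMSO were 13.5% in the paired fit and 0.719% by group alone. The 9 fibroblast genes summed to 290 to 330 CPM in DMSO, 271 to 290 in PROTAC and 182 to 231 in UNC, and in the paired fit 4 of 6 tested fell in UNC. The defining fibroblast genes LUM, DCN and COL3A1 had at most 0, 3 and 3 counts in a library. The 8 mesoderm genes summed to 14.3 to 16.8 CPM in DMSO, 11.1 to 14.5 in PROTAC and 8.87 to 9.80 in UNC, with 3 of 5 tested lower in UNC. The 9 amnion genes summed to 31.2 to 36.1, 28.6 to 38.0 and 22.2 to 27.5 CPM in the same order, and 3 of 7 fell. The 12 trophoblast genes summed to 136 to 165, 151 to 167 and 126 to 141 CPM, so the DMSO and UNC ranges overlapped, and 6 of 11 fell. By group alone 2 fibroblast, 1 mesoderm, 2 amnion and 1 trophoblast gene were called, each lower in UNC. HNF4A of the endoderm list (1.00, adjusted p = 0.0481) and ARGFX of the naive list (1.68, adjusted p = 0.00346) were called higher in UNC. In the paired fit the naive, neural and endoderm lists had 3 up and 2 down, 1 and 1, and 1 and 1. The general pluripotency list had 3 up and 0 down of 9 tested in that fit, and 0 calls by group alone. The 12 genes of the primed state summed to 1531 to 1692 CPM in DMSO, 1541 to 1938 in PROTAC and 1490 to 1756 in UNC, and these ranges overlapped. In the paired fit 6 of them fell in UNC and 1, THY1, rose. ZIC2, a zinc finger transcription factor, went from 51.4 ± 2.71 to 35.3 ± 1.94 CPM (log2 difference -0.54, SE 0.0577 in the paired fit, adjusted p = 1.24e-08) and was called by group alone as well (adjusted p = 0.0198). The part of these lists in the MBNL2 and MBNL1 values was not tested.

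The genes whose log2 CPM followed MBNL2 most closely over the 9 libraries, among 14534 with a mean of at least 1 CPM, were TRANK1 (Pearson r = 0.965), ABCG2 (0.964), MRGPRF (0.962), PHF19 (0.950), SBSPON (0.948) and TNFAIP2 (0.945). ABCG2, an efflux transporter, went from 114 to 137 CPM in DMSO to 101.4 to 105 in PROTAC and 75.0 to 89.0 in UNC. PHF19, a Polycomb-like subunit of Polycomb repressive complex 2, had 29.6 to 31.97, 29.04 to 30.2 and 26.1 to 26.4 CPM. The genes at the opposite end were CHMP4C (-0.969), HADH (-0.967) and SMC5 (-0.964). SMC5, a subunit of the SMC5/6 complex, had 57.9 to 61.7 CPM in DMSO, 62.4 to 63.2 in PROTAC and 68.6 to 71.4 in UNC. All 9 points share 3 groups and 3 numbers, and the correlations include both. Of the 6 closest genes, 1 was again among the 6 closest by Spearman correlation and 1 after subtraction of each number's mean.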

How the data were processed

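RNA-seq was done on 9 libraries, 3 per group, with groups and replicate numbers taken from the sample titles. Per the labels' protocols, the Watchmaker library kit was used together with removal of ribosomal RNA. The molecule label reads polyA RNA, so the RNA selection is uncertain. Per the submitters' processing notes, reads were handled with Trim Galore 0.6.10 and HISAT2 2.2.1 on GRCh38. How reads were counted, with which annotation and strand setting, is not stated in those sources. The deposited values are raw counts per gene, not normalized by the authors.

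In R 4.3.3 with edgeR 4.0.16, all 56312 rows were filtered by filterByExpr (24187 kept), scaled by TMM and fitted with robust quasi-likelihood tests, by group alone (common biological variation 13.2%) and with the replicate number as a block (6.09%). Where labels name no separate cultures beyond the 3 runs, p-values measure the spread between these libraries. Same-number correlations had a median of 0.264 (n = 9) and different-number ones ran from -0.324 to 0.0753. Replicate libraries differed by more than sampling noise. PROTAC number 3, the shallowest, stood apart on the second principal component. CPM use TMM-scaled totals; exon lengths are GENCODE 29 unions. Alternatives used DESeq2 1.42.0 and limma 3.58.1 (voom), other scalings and filters, and left-out libraries; the scripts were tested on simulated data. The members and lists were chosen with earlier results of these data known. Besides the 10 genes, the text names up to 4 genes of each splicing list called in a paired comparison with DMSO and with a mean of at least 1 CPM in a group, largest change first, and the 6 genes most and 3 least correlated with MBNL2; the marker lists are given as counts and sums. TDGF1 and ALPPL2 were not matched by symbol and are not analysed here, and the naive, neural and endoderm lists had calls in both directions in UNC in the paired fit (3 up and 2 down, 1 and 1, and 1 and 1).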

Additional observations from a re-analysis of the deposited data

How the results depend on the processing

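Counts of regulators here include MBNL2 itself, which was chosen by its lower level in UNC, so for MBNL2 they are a description and no test. With the replicate number as a block, the regulators called were 3 for UNC against DMSO and 1 for PROTAC against UNC, and the genes called rose to 3265, 724 (PROTAC against DMSO) and 703 (PROTAC against UNC). No filter gave 2 regulators and 834, 72 and 246 genes for those comparisons in that order, and DESeq2 gave 2 regulators and 807, 21 and 130 genes. At least 1 CPM in 3 libraries removed MBNL2 itself, leaving 0 regulators. With the 6 libraries compared, UNC against DMSO gave 0 regulators and 73 genes and PROTAC against UNC 0 genes; RLE scaling, the 1 CPM filter and limma-voom gave 1 gene there. Leaving out libraries or numbers gave 0 to 1 regulators and 0 to 277 genes for UNC against DMSO, and 0 to 35 genes for PROTAC against UNC, by group alone. Within the paired fit it gave 1197 to 2787, 147 to 639 and 319 to 731 genes, with 0 to 1 regulators for PROTAC against UNC.

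Signs that turned belong to small, uncalled differences. In UNC against DMSO, CELF1 was 0.0066 with RLE and 0.0063 with DESeq2, and MBNL3 was -0.00014 by library size; leave-outs ran from -0.15 to 0.18 for MBNL3, -0.062 to 0.034 for CELF1, -0.0073 to 0.10 for CELF2, -0.010 to 0.13 for PTBP1 and -0.027 to 0.26 for PTBP2. In PROTAC against DMSO, ESRP2 was -0.0025 with the block, -0.024 by library size, -0.020 by upper quartile, -0.0011 with no filter, -0.012 with the 1 CPM filter and -0.012 with limma-voom; leave-outs ran from -0.062 to 0.050 for ESRP2, -0.016 to 0.27 for MBNL1, -0.028 to 0.13 for CELF2, -0.0061 to 0.080 for PTBP1 and -0.22 to 0.041 for PTBP2. Leave-out ratios of PTBP2 to PTBP1 ran from -0.14 to 0.23, -0.28 to 0.028 and -0.32 to 0.010 for UNC against DMSO, PROTAC against DMSO and PROTAC against UNC, and those of CELF2 to CELF1 from -0.0064 to 0.12, -0.050 to 0.090 and -0.12 to 0.038. MBNL2, chosen by its lower level in UNC, ran from -1.84 to -1.43 over the settings that kept it. Its sign follows from that choice and is no test. The cause of these shifts was not tested. Depth limits MBNL2 most, with 15 to 112 counts a library.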
